A study of Mus musculus with 18 samples.

Results

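The 10 genes described here act in the uptake, binding, activation, storage and release of fatty acids: Lpl, Fabp4, Fabp5, Pparg, Acsl1, Acsl4, Acsl5, Plin2, Pnpla7 and Daglb. The list was selected on earlier results of these same libraries, among them the levels of these genes with and without LPS, and each symbol was matched to its mouse Ensembl gene. All 10 had a value, of 13598 genes with a value, and all 10 were among the 9707 genes that reached 1 FPKM in at least 3 of the 18 libraries. Pparg passed that filter through the mock libraries only. FPKM counts sequenced fragments per kilobase of transcript, scaled to the fragments of the library.

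RNA-seq was performed on peritoneal macrophages of 3 genotypes of mice on a C57BL/6 background. TLR4-WT mice carried the unaltered receptor, while the TLR4-K730R and the TLR4-K810R line each had a lysine of the receptor's TIR domain replaced by arginine with CRISPR/Cas9. Cells of each genotype were left unstimulated (mock) or received LPS at 100 ng/mL for 6 h, which gave 6 groups of 3 libraries. The cells had been elicited with thioglycolate medium and collected by peritoneal lavage without a sort, and nothing in the labels says that the 3 libraries of a group came from separate animals. The age of the mice is not given in the sources used here.

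TLR4 is the cell-surface receptor for LPS, and its TIR domain recruits the adaptor proteins that start the inflammatory response. Macrophages take up fatty acids that lipoprotein lipase releases from triglyceride-rich lipoproteins, carry them in the cytosol on fatty acid-binding proteins, couple them to coenzyme A with acyl-CoA synthetases, and store the excess as triglyceride in lipid droplets coated by perilipins. PPARγ, the product of Pparg, is a nuclear receptor that fatty acid derivatives activate and whose textbook targets include Fabp4, Lpl and Plin2.

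The libraries carried macrophage transcripts in every group. The 5 macrophage markers with a value summed to 11587 to 14738 FPKM in the mock groups and to 6877 to 9811 FPKM with LPS, most of it Lyz2. In TLR4-WT, Adgre1 lay at 199 to 253 FPKM in mock libraries and at 211 to 238 FPKM with LPS, Csf1r at 480 to 538 FPKM and 315 to 385 FPKM, Cd68 at 614 to 771 FPKM and 387 to 402 FPKM, and Mertk at 21.3 to 32.2 FPKM and 8.65 to 15.9 FPKM. In TLR4-K810R, Adgre1 lay at 148 to 192 FPKM and, with LPS, at 230 to 271 FPKM, Csf1r and Cd68 overlapped between treatments, and Mertk lay at 19.9 to 25.8 FPKM and 5.03 to 6.98 FPKM. Of 7 adipocyte markers, 4 had a value, and they summed to at most 0.964 FPKM in any library, with Plin1 listed at 0 in every group but TLR4-K810R mock, where it reached 0.428 FPKM. The sums of 2 lists of other cells were higher with LPS, each mainly through 1 gene. Neutrophil markers summed to 60.9 to 82.3 FPKM in mock and to 207 to 286 FPKM in LPS libraries, of which S100a8 measured 22.1 to 45.1 FPKM and 165 to 239 FPKM. Of the other neutrophil markers, Csf3r measured 26.1 to 48.6 FPKM and 37.0 to 67.4 FPKM, Camp 0 to 0.792 FPKM and 3.45 to 6.38 FPKM, and Retnlg 0 to 2.67 FPKM and 0 to 0.531 FPKM, while Ly6g and Ngp reached at most 0.644 and 0.121 FPKM in any library. Mesothelial and fibroblast markers summed to 68.2 to 235 FPKM and to 243 to 410 FPKM, of which Pdpn measured 42.2 to 66.0 FPKM and 214 to 355 FPKM. Endothelial, B cell, mast cell and resident peritoneal macrophage markers summed to at most 6.90, 3.66, 5.25 and 15.1 FPKM in any library. The alveolar macrophage list, mostly Marco and Itgax, summed to 206 to 225 FPKM in TLR4-WT mock and 166 to 181 FPKM with LPS. In TLR4-K730R it summed to 168 to 176 and 163 to 198 FPKM. In TLR4-K810R the sums were 78.6 to 93.5 and 111 to 118 FPKM. The part of these lists in the values of the 10 genes was not tested. In bulk RNA, fewer cells of a type and less RNA per cell cannot be told apart. FPKM is a share of the library, and the median gene was lower with LPS by -0.28, -0.36 and -0.26 on the log2 scale in TLR4-WT, TLR4-K730R and TLR4-K810R. After rescaling the libraries by median-of-ratios factors these medians were -0.02, -0.04 and -0.04.

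The sequence before the start of transcription is shown for 3 members, of which Acsl1 is listed at 2 main starts. They are Acsl1, the member with the largest increase, Acsl5, another ligase that was higher with LPS, and Pnpla7, a member that was lower. Each is the 250 bases upstream of a start in RefSeq (GRCm38.p6), on the plus strand, 5′ to 3′. Capitals mark every match, on either strand, to the motifs searched, which were chosen with the sequences in view.

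Acsl1 upstream start, chr8:46470787-46471036: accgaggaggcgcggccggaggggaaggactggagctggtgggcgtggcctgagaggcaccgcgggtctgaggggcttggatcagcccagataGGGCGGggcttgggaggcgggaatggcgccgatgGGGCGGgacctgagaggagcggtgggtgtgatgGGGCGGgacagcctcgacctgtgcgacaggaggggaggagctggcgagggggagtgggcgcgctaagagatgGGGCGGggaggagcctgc
Acsl1 inner start, chr8:46490716-46490965: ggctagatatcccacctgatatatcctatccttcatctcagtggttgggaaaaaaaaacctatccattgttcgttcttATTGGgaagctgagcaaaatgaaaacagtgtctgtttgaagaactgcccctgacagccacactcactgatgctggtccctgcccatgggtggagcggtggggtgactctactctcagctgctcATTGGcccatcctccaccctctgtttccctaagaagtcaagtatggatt
Acsl5, chr19:55253119-55253368: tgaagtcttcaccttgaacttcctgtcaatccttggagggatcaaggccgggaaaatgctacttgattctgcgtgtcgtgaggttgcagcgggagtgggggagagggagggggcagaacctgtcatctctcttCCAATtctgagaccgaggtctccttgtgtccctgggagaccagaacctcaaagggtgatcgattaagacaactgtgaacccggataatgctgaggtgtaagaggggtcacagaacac
Pnpla7, chr2:24975783-24976032: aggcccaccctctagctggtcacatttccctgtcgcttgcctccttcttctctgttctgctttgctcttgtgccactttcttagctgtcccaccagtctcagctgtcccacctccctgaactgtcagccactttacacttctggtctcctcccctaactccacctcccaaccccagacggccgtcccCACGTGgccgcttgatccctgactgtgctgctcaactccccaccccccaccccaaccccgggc

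The upstream Acsl1 window was 72.0% G and C with 20 CpG dinucleotides and held the GC box GGGCGG 4 times, a motif found in 32.7% of the 32851 RefSeq windows of this length. The inner Acsl1 window, 19929 bases further on, was 48.4% G and C with 2 CpG, and held the CCAAT box 2 times, both on the reverse strand as ATTGG, against 33.8% of all windows. The Acsl5 window held 1 CCAAT box, and the Pnpla7 window held 1 E-box of the letters CACGTG, found in 6.02% of all windows. The median window had 52.4% G and C and 6 CpG. The letters GAGGAAG, a PU.1-like sequence, were searched on both strands in the 10 windows of the 7 members that had one and were in none of them, against 10.6% of all windows. The nuclear receptor half-site AGGTCA, in 14.0% of all windows, was in the window of Plin2 and in 2 of the 3 windows of Pparg, and the TATA box TATAAA, in 12.4% of all windows, in 1 window of Pparg. These are matches of letters in short windows and do not show binding.

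Fabp4 and Fabp5, genes for cytosolic fatty acid carriers in one cluster on chromosome 3, were both much lower in every LPS library. Fabp4 (chr3:10204088-10208576, minus strand, GRCm38) measured 331, 346 and 332 FPKM in the TLR4-WT mock libraries and 34.4, 32.04 and 26.9 FPKM with LPS. In TLR4-K730R it measured 293, 273 and 272 FPKM without LPS and 24.3, 21.4 and 27.7 FPKM with LPS. In TLR4-K810R the values were 332, 329 and 334 FPKM and, with LPS, 36.7, 29.3 and 29.5 FPKM. Every mock library lay above every LPS library, and the mean with LPS was 10.8, 11.4 and 10.4 times lower in the 3 genotypes. The fitted differences on the log2(FPKM + 1) scale were -3.40, -3.47 and -3.35 (SE 0.12 each). All of its first-exon FPKM came from a single listed first exon.

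Fabp5 (chr3:10012548-10016607, plus strand) was among the most abundant transcripts of these cells. It measured 3142, 3007 and 3173 FPKM in TLR4-WT mock libraries and 621, 612 and 618 FPKM with LPS. In TLR4-K730R it measured 3377, 3174 and 3039 FPKM without and 476, 532 and 654 FPKM with LPS. In TLR4-K810R it measured 3732, 3480 and 3745 FPKM without and 867, 792 and 755 FPKM with LPS. It stood at rank 9 of the 9707 genes by mean FPKM in the TLR4-WT mock group and still at rank 65 with LPS. The LPS means were 5.04, 5.77 and 4.54 times lower, with log2 differences of -2.33, -2.54 and -2.18 (SE 0.11). A processed pseudogene, Fabp5l2, is a close copy of Fabp5, so reads could have been divided between them, and the value of Fabp5 is uncertain to that extent.

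Lpl (chr8:68880491-68907448, plus strand), which encodes lipoprotein lipase, was abundant and varied widely between libraries of one group. The TLR4-WT libraries measured 864, 830 and 1398 FPKM without and 269, 375 and 439 FPKM with LPS. The TLR4-K730R libraries measured 1261, 1416 and 904 FPKM without and 367, 497 and 350 FPKM with LPS. The TLR4-K810R libraries measured 513, 1268 and 694 FPKM without and 530, 594 and 545 FPKM with LPS. Mock and LPS libraries were apart in TLR4-WT and TLR4-K730R, where LPS means were 2.86 and 2.95 times lower, and overlapped in TLR4-K810R, where the mean was 1.48 times lower. The log2 differences were -1.50, -1.55 and -0.46 (SE 0.29). The TLR4-K810R value depended on the mock libraries: it was -0.10 without TLR4-K810R mock replicate 2 and -0.75 without TLR4-K810R mock replicate 1. Under median-of-ratios scaling it was -0.19. By the last exon alone, TLR4-WT libraries overlapped, with mock replicate 2 at 437 FPKM and LPS replicate 3 at 438 FPKM.

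Pparg (chr6:115360951-115490399, plus strand) was present at a moderate level in mock cells and close to 0 with LPS. TLR4-WT libraries measured 18.8, 19.5 and 17.4 FPKM without and 0.927, 0.176 and 0.332 FPKM with LPS. TLR4-K730R libraries measured 17.6, 13.8 and 14.4 FPKM without LPS, and with LPS 0.640 and 0.335 FPKM, with TLR4-K730R LPS replicate 2 listed at 0. TLR4-K810R libraries measured 19.999, 8.44 and 20.2 FPKM without and 0.693, 0.891 and 1.11 FPKM with LPS. The mock and LPS libraries did not overlap in any genotype, and the lowest mock value, of TLR4-K810R mock replicate 2, was still above every LPS value. The fitted differences were -3.76, -3.64 and -3.09 (SE 0.27). With a pseudocount of 0.1 in place of 1 they were -5.23, -5.59 and -3.94, so the size of the drop in this low gene depends on that setting, and no depth is known that would bound it.

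The first exon of Pparg that begins at position 115360951 carried 74.1% to 97.1% of its first-exon FPKM in the mock libraries, between 6.25 and 18.7 FPKM. A second first exon at position 115362292 carried 0.277 to 2.50 FPKM there. A further one at position 115422066 carried at most 1.58 FPKM, in TLR4-K810R mock replicate 2, where it made up 18.7% of the sum. That library thus had less of the main first exon and more of that further one than the other mock libraries. A long non-coding gene, Gm44079, lies on the opposite strand within Pparg, and whether reads were counted by strand is not given in the sources used here.

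The difference in level among the members is shown in the plot of values by library.

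**Figure D1:**
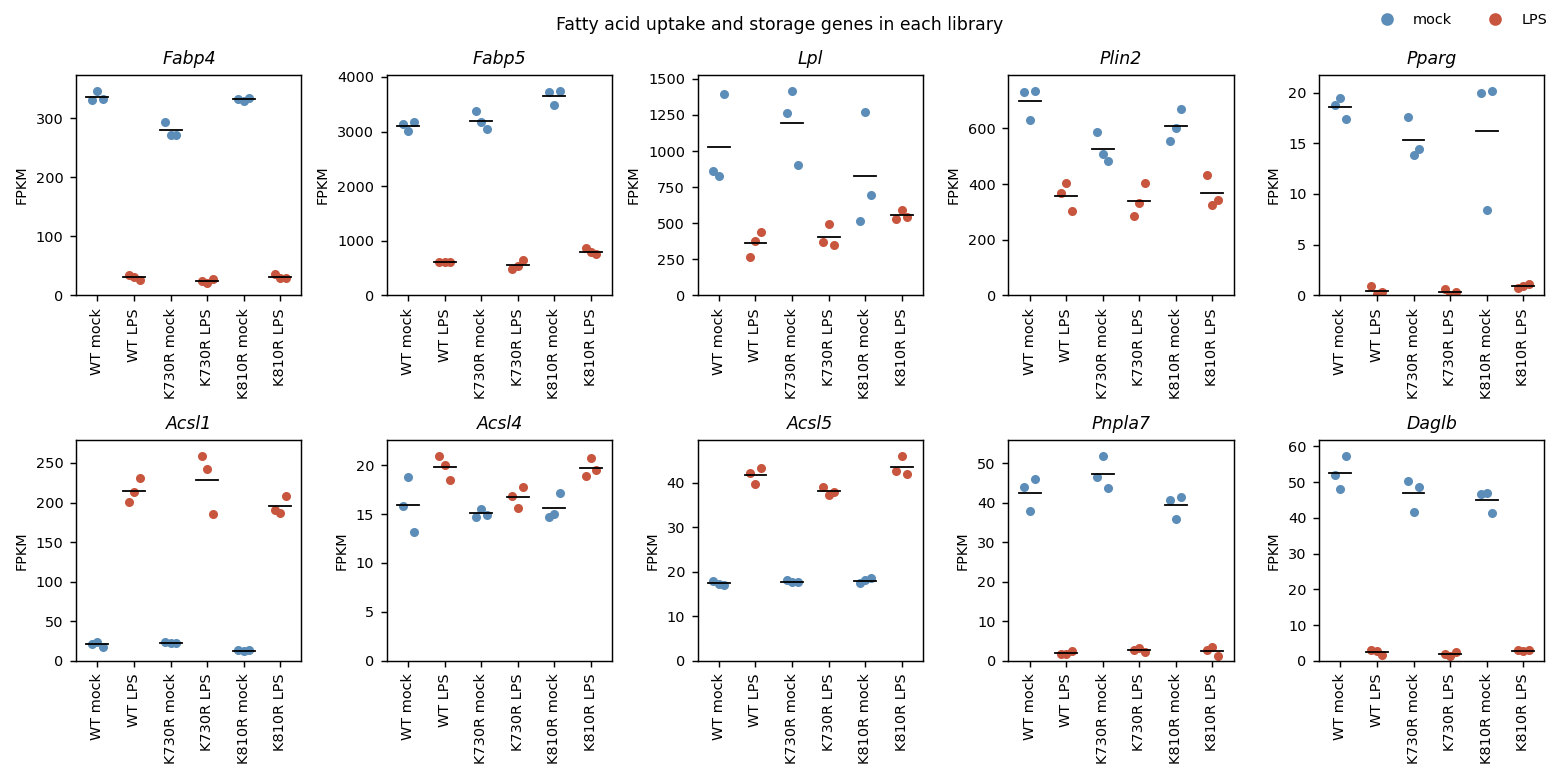
FPKM (vertical axis, linear, from 0, own scale per gene) of each of the 10 genes in the 6 groups (horizontal axis), with 1 point per library (blue mock, red LPS) and a line for the mean of 3. Fabp4, Fabp5, Plin2, Pparg, Pnpla7 and Daglb have separate mock and LPS libraries in every genotype, Acsl1 and Acsl5 are separate in the other direction, and Lpl overlaps in TLR4-K810R.

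Plin2 (chr4:86648386-86670060, minus strand), the perilipin that coats lipid droplets in most cells, remained abundant with LPS but lower than without. TLR4-WT libraries measured 731, 628 and 735 FPKM without and 367, 403 and 303 FPKM with LPS. TLR4-K730R libraries measured 587, 509 and 482 FPKM without and 287, 332 and 402 FPKM with LPS. TLR4-K810R libraries measured 556, 601 and 670 FPKM without and 433, 324 and 342 FPKM with LPS. The libraries were apart in each genotype, by ratios of the means of 1.95, 1.55 and 1.66. The log2 differences were -0.97, -0.64 and -0.74 (SE 0.15). They were -0.64, -0.23 and -0.46 under median-of-ratios scaling, so the size of this difference depends on the scale on which libraries are compared.

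Of the 3 long-chain acyl-CoA synthetases, which couple fatty acids to coenzyme A, Acsl1 and Acsl5 were higher with LPS, and Acsl4 differed less. Acsl1 (chr8:46471037-46536051, plus strand) measured 21.5, 23.4 and 17.6 FPKM in TLR4-WT mock libraries and 201, 214 and 231 FPKM with LPS. In TLR4-K730R it measured 23.2, 22.8 and 22.8 FPKM without and 259, 242 and 186 FPKM with LPS. In TLR4-K810R it measured 13.4, 11.7 and 13.5 FPKM without and 191, 187 and 208 FPKM with LPS. Every LPS library lay far above every mock library, with means 10.3, 9.99 and 15.2 times higher and log2 differences of 3.32, 3.25 and 3.82 (SE 0.13). Acsl1 thus passed from rank 2211 to rank 258 of the 9707 genes in TLR4-WT.

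The files list Acsl1 from 2 main first exons, the upstream one at position 46471037 and the inner one at position 46490966, whose upstream sequences are printed above. The inner start measured 193, 186 and 199 FPKM in TLR4-WT LPS libraries, against 17.3, 0 and 1.89 FPKM in mock libraries. In TLR4-K730R it measured 216, 231 and 166 FPKM with LPS and 7.13, 0 and 18.8 FPKM without. In TLR4-K810R it measured 69.4, 74.5 and 200 FPKM with LPS, and in mock libraries 2.51 FPKM in replicate 3, with replicates 1 and 2 listed at 0. All 9 LPS libraries lay above all 9 mock libraries for this start, and it held 36.3% to 96.1% of the first-exon FPKM with LPS. The upstream start lay between 3.43 and 23.3 FPKM in mock libraries and between 7.14 and 118 FPKM with LPS, so its 2 sets of libraries overlapped. Its highest values, 118 and 111 FPKM, were those of TLR4-K810R LPS replicates 1 and 2, while replicate 3 measured 7.34 FPKM. In mock libraries the share of the inner start varied from 0% to 82.5%, with wide spread within TLR4-WT and TLR4-K730R. How fragments were assigned to starts is not given in the sources used here.

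**Figure D2:**
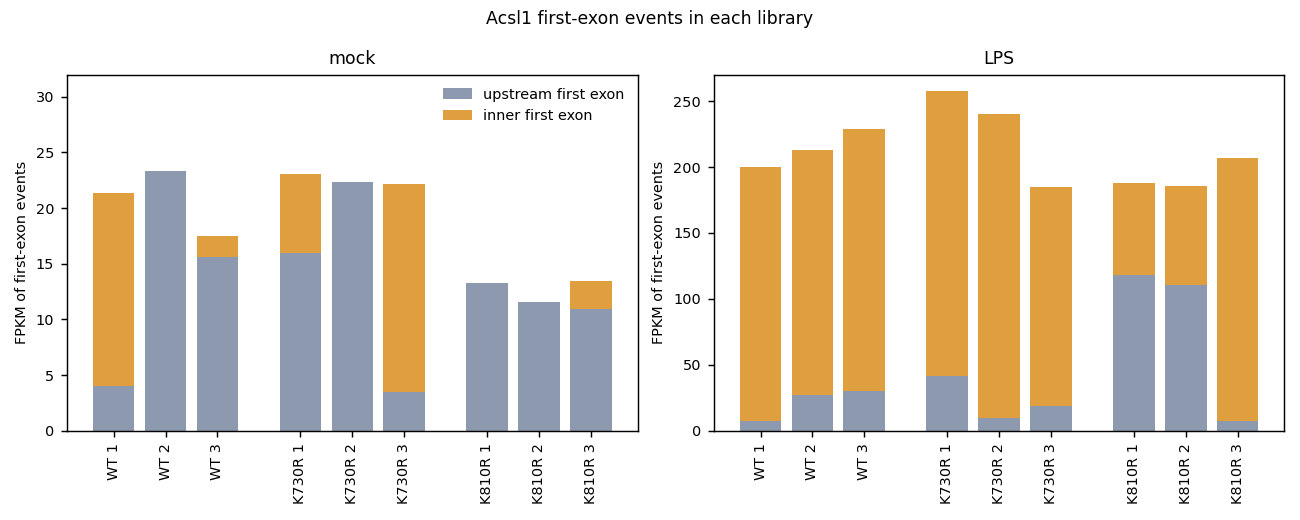
Stacked bars of the FPKM of the upstream (grey) and the inner (orange) Acsl1 first exon (vertical axis, linear, from 0) in each of the 18 libraries (horizontal axis, by genotype and replicate), with mock and LPS in separate panels of different scale. The inner start lies at 69.4 to 231 FPKM in LPS libraries and at 0 to 18.8 FPKM in mock libraries, and the upstream start overlaps between them.

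Acsl5 (chr19:55251938-55297720, plus strand) was higher with LPS by a smaller amount and with little spread. TLR4-WT libraries measured 17.9, 17.2 and 17.0 FPKM without and 42.1, 39.7 and 43.2 FPKM with LPS. TLR4-K730R libraries measured 18.1, 17.7 and 17.6 FPKM without and 39.0, 37.1 and 38.0 FPKM with LPS. TLR4-K810R libraries measured 17.4, 18.1 and 18.5 FPKM without and 42.7, 45.9 and 41.9 FPKM with LPS. LPS means were 2.40, 2.14 and 2.41 times higher and no libraries overlapped. The log2 differences were 1.21, 1.05 and 1.23 (SE 0.08). The gene overlaps Zdhhc6 on the opposite strand.

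Acsl4 (chrX:142317993-142390535, minus strand), the family member that prefers arachidonic acid, differed least of the 3 between mock and LPS libraries. TLR4-WT libraries measured 15.8, 18.7 and 13.2 FPKM without and 20.9, 19.97 and 18.5 FPKM with LPS. TLR4-K730R libraries measured 14.7, 15.5 and 14.9 FPKM without and 16.8, 15.7 and 17.8 FPKM with LPS. TLR4-K810R libraries measured 14.7, 15.05 and 17.1 FPKM without and 18.9, 20.7 and 19.5 FPKM with LPS. The TLR4-WT libraries overlapped, and the mutant ones were narrowly apart. The log2 differences of 0.31, 0.14 and 0.32 (SE 0.12) became 0.62, 0.53 and 0.58 under median-of-ratios scaling. The TLR4-WT value was 0.19 without TLR4-WT mock replicate 3.

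Pnpla7 and Daglb, which encode lipid hydrolases, were nearly lost with LPS. Pnpla7 (chr2:24976033-25054057, plus strand), a lysophospholipase gene, measured 43.8, 37.7 and 46.0 FPKM in TLR4-WT mock libraries and 1.68, 1.70 and 2.43 FPKM with LPS. In TLR4-K730R it measured 46.5, 51.7 and 43.8 FPKM without and 2.66, 3.17 and 2.15 FPKM with LPS. In TLR4-K810R it measured 40.6, 35.9 and 41.5 FPKM without and 2.80, 3.44 and 1.23 FPKM with LPS. No LPS library came near a mock library, and the log2 differences were -3.89, -3.73 and -3.59 (SE 0.20). The LPS means were 21.96, 17.8 and 15.8 times lower. The Pnpla7 level rests on first-exon rows, as the 1 last exon listed measured at most 0.171 FPKM in any library. A processed pseudogene, Gm13370, overlaps Pnpla7 on the same strand.

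Daglb (chr5:143464584-143505942, plus strand) encodes diacylglycerol lipase beta, which makes the endocannabinoid 2-arachidonoylglycerol from diacylglycerol. It measured 51.9, 48.2 and 57.3 FPKM in TLR4-WT mock libraries and 2.94, 2.78 and 1.496 FPKM with LPS. In TLR4-K730R it measured 50.2, 41.7 and 48.8 FPKM without and 1.77, 1.33 and 2.46 FPKM with LPS. In TLR4-K810R it measured 46.8, 46.9 and 41.3 FPKM without and 2.90, 2.79 and 2.91 FPKM with LPS. The LPS means were 21.8, 25.4 and 15.7 times lower with no overlap, and the log2 differences were -4.00, -4.09 and -3.57 (SE 0.17). Daglb overlaps Rac1 on the opposite strand.

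**Figure D3:**
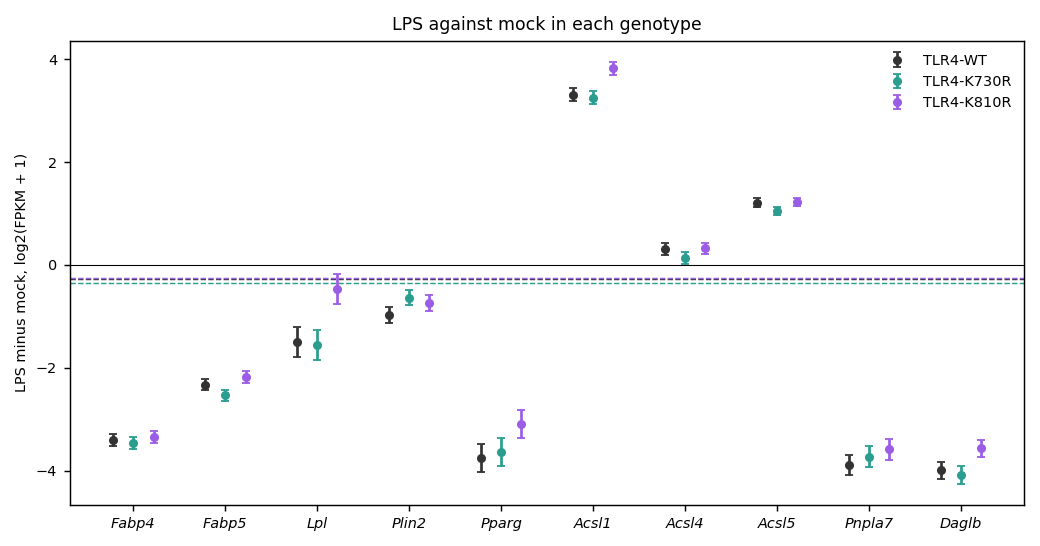
Log2(FPKM + 1) difference between LPS and mock libraries (vertical axis) of each gene (horizontal axis) in the 3 genotypes, with bars for 1 standard error of the fit and dashed lines for the median of all tested genes. Acsl1 and Acsl5 lie above 1, Acsl4 between 0.14 and 0.32, and the other 7 below 0, from -0.46 for Lpl in TLR4-K810R to -4.09 for Daglb in TLR4-K730R.

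Read against the whole table, a gene was called where the adjusted p of limma was below 0.01. Of the 10 members, 9 were called in TLR4-WT, 2 higher and 7 lower, where 34.3% of all tested genes were called, 10.4% higher and 23.9% lower. In TLR4-K730R 9 were called, 2 higher and 7 lower, against 35.8% of all genes, 9.32% higher and 26.5% lower. In TLR4-K810R 8 were called, 2 higher and 6 lower, against 28.8% of all genes, 9.08% higher and 19.7% lower, with Lpl and Acsl4 not called there and Acsl4 alone not called in the other genotypes. Under median-of-ratios scaling 3 members were called higher and 7 lower for TLR4-WT, and 3 and 6 for TLR4-K730R, where Plin2 was not called. For TLR4-K810R 3 and 5 were called, with Plin2 and Lpl not called there. The shares of all genes called were 29.6%, 28.8% and 24%. Acsl4 was among the 3 members called higher in each genotype under that scaling. The members had been chosen with these responses known, so the counts describe the choice and carry no test. Mock and LPS libraries did not overlap for 9, 10 and 9 members, where 55%, 58.8% and 52.5% of all genes did not overlap.

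Between genotypes, differences were smaller than those with LPS for most members. Exceptions were Lpl in TLR4-K810R, with -0.46 between LPS and mock and 0.65 from TLR4-WT under LPS, and Acsl4 in TLR4-K730R, with 0.14 and -0.23. Both mutants were compared with the same TLR4-WT libraries. In mock cells of TLR4-K730R, Fabp4 and Plin2 lay below all TLR4-WT libraries, by -0.27 (SE 0.12) and -0.41 (SE 0.15) on the log2 scale, and the other 8 overlapped. None of the 10 was called, where 0.268% of all genes were called, and 2 members apart of 10 compares with 16.4% of all genes. In mock cells of TLR4-K810R, Acsl1 at 12.9 ± 0.986 FPKM (SD, n = 3) lay below TLR4-WT at 20.8 ± 2.996 FPKM (SD, n = 3), by -0.65 (SE 0.13). It was the 1 member past the threshold, as were 1.58% of all genes, which is a description and not a test since the members were chosen with results of these data known. The difference lay between -0.76 and -0.56 when any 1 library was left out. Daglb was lower by -0.22 (SE 0.17) and Fabp5 higher by 0.23 (SE 0.11) with no overlap of libraries, which 20.8% of all genes showed.

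Pparg and Lpl overlapped between TLR4-K810R and TLR4-WT mock libraries, and both values depended on single libraries. Pparg differed by -0.28 with all libraries and by 0.11 without TLR4-K810R mock replicate 2. Lpl differed by -0.38 with all libraries, by -0.75 without that replicate, by -0.09 without TLR4-K810R mock replicate 1 and by -0.14 without TLR4-WT mock replicate 3. In the same group, mesothelial and fibroblast markers summed to 125, 122 and 235 FPKM in replicates 1 to 3, against 68.2 to 93.3 FPKM in TLR4-WT mock libraries. Of the 7 markers, Wt1, Upk3b, Col1a1, Col3a1 and Dcn were higher in every TLR4-K810R mock than in every TLR4-WT mock library, Msln overlapped, and Pdpn was lower, at 42.2 to 51.0 FPKM against 51.9 to 66.0 FPKM. Replicate 3 carried the most of these markers, and the sums of replicates 1 and 2 were close. The alveolar macrophage list, mostly Marco and Itgax, summed to 78.6 to 93.5 FPKM in TLR4-K810R mock against 206 to 225 FPKM in TLR4-WT mock. In TLR4-K730R mock it summed to 168 to 176 FPKM. Of its other markers, Siglecf and Car4 reached at most 2.73 and 1.24 FPKM in any library, and Krt79 had no value. The part of these markers in the values of the members was not tested.

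With LPS, no member was called in either mutant, where 0% of all genes were called in TLR4-K730R and 0.134% in TLR4-K810R. In TLR4-K730R, Acsl4 was lower by -0.23 (SE 0.12) and Acsl5 by -0.13 (SE 0.08) with libraries apart from those of TLR4-WT, as were 10.9% of all genes. In TLR4-K810R, Fabp5 was higher by 0.38 (SE 0.11) and Lpl by 0.65 (SE 0.29) with libraries apart, as were 25.3% of all genes. The median gene was itself 0.11 higher in that comparison, and under median-of-ratios scaling the 2 values were 0.23 and 0.50.

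The LPS response itself was compared between genotypes with an interaction term, and no member was called, where 0.0412% of all genes were called for TLR4-K730R and 0.124% for TLR4-K810R. For TLR4-K730R the 10 differences in response were at most 0.33 in size. For TLR4-K810R the LPS difference was smaller in size than for TLR4-WT by 1.03 (SE 0.42) for Lpl, by 0.66 (SE 0.39) for Pparg and by 0.43 (SE 0.24) for Daglb, all lower with LPS, and larger by 0.51 (SE 0.18) for Acsl1, higher with LPS. When 1 library was left out, the Lpl value ranged from 0.74 to 1.40 and the Acsl1 value from 0.42 to 0.62. The Pparg value was 0.28 without TLR4-K810R mock replicate 2, and the Daglb value was 0.22 without TLR4-WT LPS replicate 3.

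**Figure D4:**
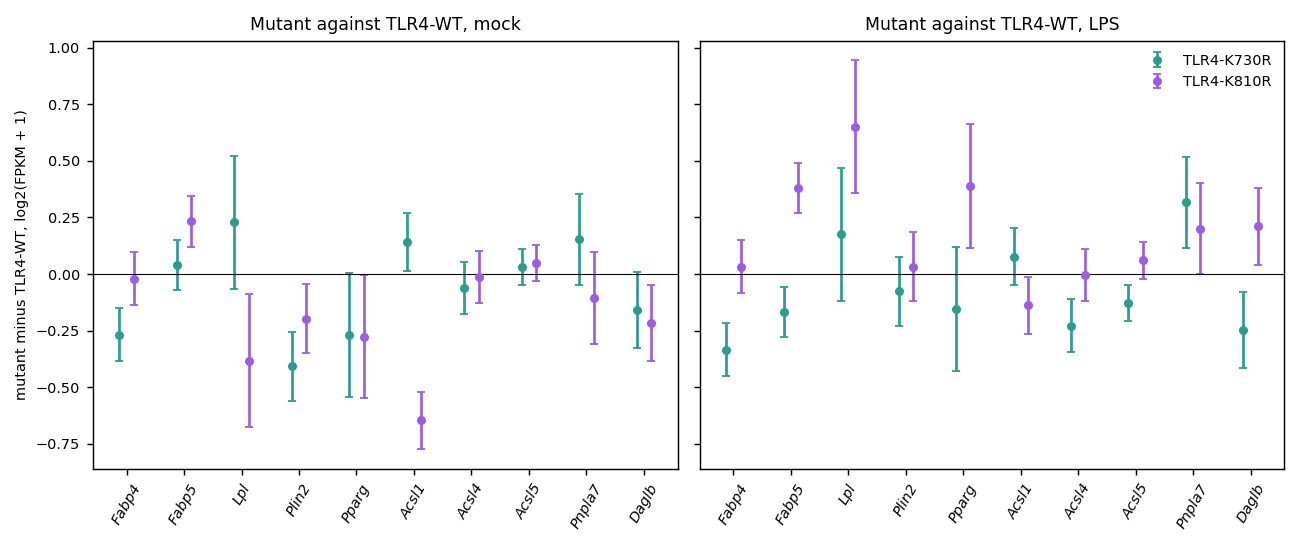
Log2(FPKM + 1) difference of each mutant from TLR4-WT (vertical axis) for each gene (horizontal axis), in mock (left) and LPS (right) libraries, with bars for 1 standard error of the fit. Most values lie within 0.4 of 0, and Acsl1 in TLR4-K810R mock at -0.65 and Lpl in TLR4-K810R LPS at 0.65 lie farthest out.

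Across the 18 libraries the members' patterns were matched by other genes, by Pearson's r of log2(FPKM + 1). The most alike gene was Atp6v0d2 for Fabp4 (r = 0.997), Syngr1 for Fabp5 (r = 0.998), Clec4e for Acsl1 (r = 0.996), Lcn2 for Acsl5 (r = 0.991), Pianp for Pnpla7 (r = 0.992) and Mxd4 for Pparg (r = 0.988). Fabp4 was the most alike gene to Daglb (r = 0.997). The remaining matches were Psmc1 for Acsl4 (r = 0.927), Pld4 for Plin2 (r = 0.945) and Ogfod3 for Lpl (r = 0.935). The points form a mock and an LPS set and share their libraries, so these values describe mainly the LPS difference and were not tested.

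The other genes of fatty acid metabolism, 115 listed in 8 functional groups, of which 90 had a value and 73 were tested, were called lower more often than higher with LPS, as were all genes. In TLR4-WT 8 of the 73 rose and 33 fell, 56.2% called against 34.3% of all genes, and their median difference was -0.67 against -0.28. In TLR4-K730R 9 rose and 31 fell, 54.8% called against 35.8%, with a median of -0.59. In TLR4-K810R 8 rose and 24 fell, 43.8% called against 28.8%, with a median of -0.50. Under median-of-ratios scaling the calls were 10 higher and 24 lower for TLR4-WT, 12 higher and 20 lower for TLR4-K730R and 11 higher and 20 lower for TLR4-K810R, with medians of -0.43, -0.26 and -0.26. Of all genes, 10.4%, 9.32% and 9.08% were called higher and 23.9%, 26.5% and 19.7% lower in TLR4-WT, TLR4-K730R and TLR4-K810R, and 15.4%, 15.3% and 12.3% higher and 14.2%, 13.5% and 11.7% lower under that scaling. Of the 73, 3 reached the 1 FPKM in 3 libraries that the filter on low values asks for with LPS but not without it (Acsbg1, Dgat2 and Lipg), and 6 without LPS but not with it (Acot1, Acot2, Lpin1, Mgll, Ppargc1b and Fads3). Passing through one treatment favours a difference, so no p is given for these genes. Among the 63 list genes that met the filter both with and without LPS, a choice made after seeing the data, 5 were called higher and 29 lower for TLR4-WT, 6 and 28 for TLR4-K730R and 6 and 21 for TLR4-K810R, or 54%, 54% and 42.9% called against 34.1%, 35.8% and 28.2% of the 8491 such genes in all. The list was chosen with earlier results of these data known, so its counts and medians are a description and not a test. The adjusted p-values below are those of limma in TLR4-WT, unless another genotype or scaling is named.

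Among the genes of uptake and binding, 2 rose and 3 fell of 8 tested in TLR4-WT. Fabp3, the heart-type carrier, rose from 35.1 to 243 FPKM (log2 difference 2.75, adjusted p = 2.36e-09), in the direction opposite to Fabp4 and Fabp5, and also rose in TLR4-K730R by 2.81 and in TLR4-K810R by 3.45. Slc27a4, a fatty acid transport protein, rose from 9.78 to 22.8 FPKM (adjusted p = 1.01e-05). Cd36, the scavenger receptor that takes up long-chain fatty acids, fell from 982 to 442 FPKM (adjusted p = 0.000243) and was -0.69 lower in TLR4-K810R, not called (adjusted p = 0.0139). The call for Cd36 in TLR4-K730R was lost under median-of-ratios scaling (adjusted p = 0.0224). Lmf1, which helps to fold lipoprotein lipase, fell from 8.54 to 2.78 FPKM (adjusted p = 8.75e-05), and Slc27a1 fell from 67.0 to 38.0 FPKM (adjusted p = 0.00103), a call that was lost under median-of-ratios scaling (adjusted p = 0.0516). Neither was called in a mutant, where Lmf1 had means of 6.06 and 4.42 FPKM in TLR4-K730R and of 7.08 and 4.54 FPKM in TLR4-K810R, and Slc27a1 means of 63.1 and 43.0 FPKM and of 55.8 and 45.9 FPKM.

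Of 8 other acyl-CoA ligases and thioesterases, 2 rose and 4 fell in TLR4-WT. Acsbg1, a further acyl-CoA synthetase, went from 0.278 to 3.96 FPKM, and the thioesterase gene Acot9 rose from 19.2 to 29.1 FPKM. The thioesterase gene Acot2 went from 3.88 to 0.428 FPKM, Acot13 fell from 15.9 to 3.04 FPKM, and Acot11 fell from 3.21 to 0.791 FPKM, the last not called under median-of-ratios scaling. Acot1 and Acot2 are close paralogs, and reads could have been divided between them.

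Of 10 genes of triglyceride synthesis tested, 2 rose and 1 fell in TLR4-WT. Among them, Dgat2 met the filter through LPS libraries only and Lpin1 through mock libraries only, which favours a difference. Dgat2, which adds the last acyl chain, went from 0.508 to 4.06 FPKM, and Agpat2 rose from 15.7 to 28.7 FPKM (adjusted p = 0.00178). Lpin1, which makes diacylglycerol from phosphatidic acid, measured 6.34 FPKM without LPS and was listed at 0 in all 3 TLR4-WT LPS libraries. Both other lipid droplet proteins tested were called: Hilpda, an inhibitor of triglyceride breakdown, rose from 39.3 to 77.5 FPKM, and Plin3 fell from 58.5 to 21.05 FPKM. Hilpda and Plin3 were called in the same direction in both mutants, and Agpat2 in TLR4-K810R and, under median-of-ratios scaling alone, in TLR4-K730R. Agpat4, a further acyltransferase gene, was called higher in both mutants, by 0.55 and 0.72, and under that scaling also in TLR4-WT (adjusted p = 0.00621).

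Among 12 other lipases, 1 rose and 5 fell in TLR4-WT. Lipa, the acid lipase of lysosomes, fell from 561 to 94.4 FPKM (adjusted p = 1.20e-10), Abhd12 from 210 to 69.5 FPKM, and Pnpla2, the adipose triglyceride lipase, from 56.8 to 19.8 FPKM. These 3 fell in the mutants as well, Lipa by 2.75 in TLR4-K730R and by 2.63 in TLR4-K810R on the log2 scale. Lipg, endothelial lipase, was listed at 0 in all 3 mock libraries and at 9.69, 8.99 and 1.72 FPKM with LPS. Of 6 nuclear receptors and coregulators, Rxra, a partner of PPARγ, fell from 39.6 to 16.2 FPKM (adjusted p = 6.86e-07) and Rxrb from 14.3 to 6.04 FPKM (adjusted p = 1.76e-05). In TLR4-K730R Ppard rose from 9.78 to 18.7 FPKM (adjusted p = 0.00169). Its libraries were also apart in TLR4-WT, at means of 11.1 and 16.9 FPKM (adjusted p = 0.0239), and in TLR4-K810R, at 10.4 and 17.1 FPKM (adjusted p = 0.0105), neither of which was called. Both were called under median-of-ratios scaling (adjusted p = 0.00143 and 0.00112).

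No gene of beta-oxidation or of fatty acid synthesis was called higher in any genotype, where 9.08% to 10.4% of all genes were. Of 18 beta-oxidation genes 12, 12 and 9 fell in TLR4-WT, TLR4-K730R and TLR4-K810R, against 23.9%, 26.5% and 19.7% of all genes called lower. Under median-of-ratios scaling 7, 8 and 7 fell, against 14.2%, 13.5% and 11.7% of all genes. The largest drops in TLR4-WT were those of Hadh, from 13.9 to 3.08 FPKM, Acaa2, from 30.2 to 7.77 FPKM, and Acads, from 8.43 to 2.87 FPKM, the last not called under that scaling. Of 9 genes of fatty acid synthesis and desaturation 5, 5 and 3 fell, and 3, 3 and 2 under that scaling, led in TLR4-WT by Fads1, from 18.6 to 4.35 FPKM, Elovl5, from 18.7 to 4.91 FPKM, and Fasn, the fatty acid synthase, from 5.29 to 2.16 FPKM, the last not called under that scaling (adjusted p = 0.0119).

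**Figure D5:**
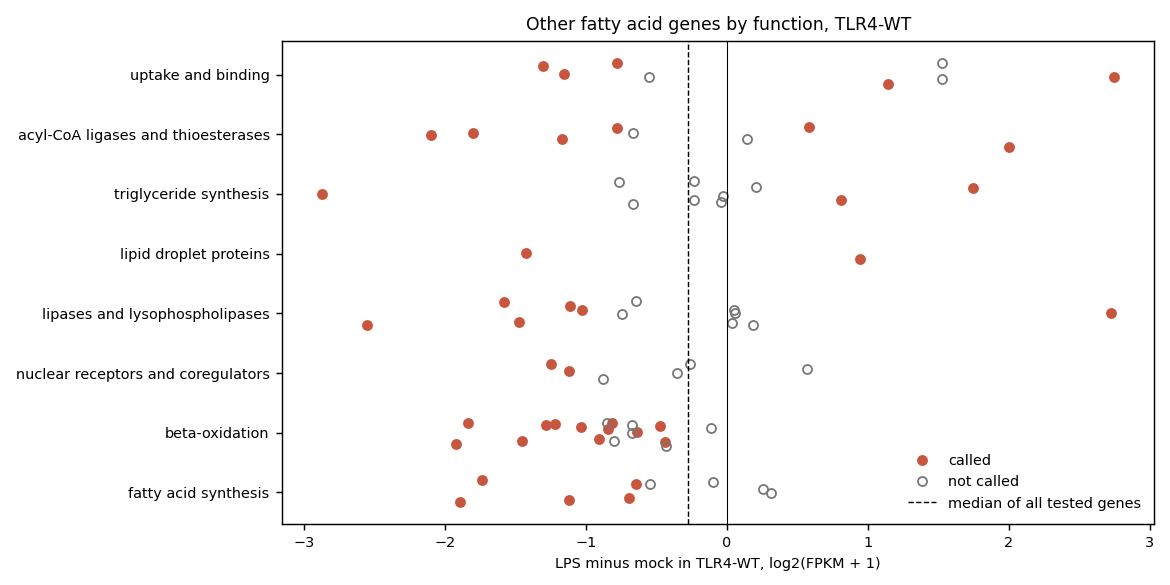
Log2(FPKM + 1) difference between LPS and mock in TLR4-WT (horizontal axis) of the 73 other genes of fatty acid metabolism by functional group (vertical axis), with 1 point per gene, filled where called, and a dashed line for the median of all tested genes. Points of beta-oxidation and fatty acid synthesis lie mostly below 0, while uptake, ligase and triglyceride synthesis genes lie on both sides.

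Between genotypes a single gene of this list was called by limma, Fabp1 in TLR4-K810R against TLR4-WT mock cells (log2 difference 2.66, adjusted p = 0.00969), where 1.58% of all genes were called. Fabp1, the liver and intestinal carrier, was listed at 0 in the 3 TLR4-WT mock libraries and measured 3.50, 3.98 and 10.3 FPKM in TLR4-K810R mock. It measured 5.78, 6.94 and 3.81 FPKM in TLR4-K730R mock, where it was not called. With LPS it fell in TLR4-K810R, to 1.69 FPKM in 1 library and to a listing of 0 in the others (log2 difference -2.18, adjusted p = 0.00379). The 6 intestinal epithelium markers with a value, Fabp1 among them, summed to 0.118 to 0.594 FPKM in TLR4-WT mock, to 11.0 to 51.6 FPKM in TLR4-K810R mock and to 7.53 to 36.4 FPKM in TLR4-K730R mock, and Lgals4 alone reached 32.1 and 22.7 FPKM in the mutants. With LPS, the TLR4-WT libraries also held these transcripts, with sums of 0, 10.8 and 10.9 FPKM and Fabp1 at 0, 3.88 and 3.90 FPKM. In TLR4-K730R the sums with LPS were 8.77 to 13.6 FPKM, with Fabp1 at 3.83 to 6.13 FPKM. In TLR4-K810R the sums with LPS were 0.127 to 5.15 FPKM. The part of these transcripts in the Fabp1 value was not tested. The call was lost when any 1 library of the 6 was left out, under median-of-ratios scaling (adjusted p = 0.0182), with a pseudocount of 0.1, with no filter, with the replicate block and with either exon sum alone. The counts of list genes called by limma were 0 in the other comparisons between genotypes and of LPS responses, in which 4 to 19 of the 73 had an unadjusted p below 0.05. The 19 were those of TLR4-K810R with LPS, 26% of the list against 21.8% of all tested genes.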

How the data were processed

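RNA of peritoneal macrophages was isolated with a column kit and sequenced on an Illumina instrument by a service provider, per the study's methods. The authors deposited, for each of 18 libraries, FPKM values of transcript events of 20 kinds under Ensembl mouse gene numbers (80071 to 90401 rows per library). Their positions match GRCm38 and GENCODE M21. The labels name a human build, hg18, which the mouse gene numbers contradict, and the aligner and counting program are not given in the sources used here. No read counts were used, so the depth of each library is unknown and no interval or floor was computed.

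First-exon and last-exon rows off the strand or outside the span of their gene were dropped (5.99% of the FPKM of these rows). FPKM was summed over each kind of row, and the larger sum was taken as the level of the gene. Of 14063 gene numbers in these rows, 14051 were in GENCODE M21. The 9707 genes that reached 1 FPKM in 3 or more libraries were fitted with limma 3.58.1 (R 4.3.3) on log2(FPKM + 1), with an intensity trend and a single model of the 6 groups, and p-values were adjusted by Benjamini-Hochberg within each comparison. The threshold was the study's, an adjusted p below 0.01. The procedure was tested on simulated data. Since nothing says that libraries came from separate animals, p-values measure the spread between these libraries, which may be technical.

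The 10 members, the list of other genes, the markers and the motifs were chosen with earlier results of these data known. Values of members, and counts of members and of list genes past the threshold, are therefore descriptions and not tests. Named from the list were, per comparison with LPS and functional group, up to 3 called genes in each direction with the largest difference in TLR4-WT, and every called gene in comparisons between genotypes. For each member the gene with the highest r was named. Some listed genes were not analysed here. Alternatives tried were a pseudocount of 0.1, no filter, median-of-ratios scaling, a replicate block, either exon sum alone, every row as listed, leaving out each library and, added after seeing the data, genes that met the filter in each treatment. Tables were handled in Python 3.11.15 with pandas 2.3.3, and figures drawn with matplotlib 3.10.9. Promoter windows are from RefSeq (GRCm38.p6).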

Additional observations from a re-analysis of the deposited data

How the results depend on the processing

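For the other genes of fatty acid metabolism, the count called with LPS was 41 for TLR4-WT, 40 for TLR4-K730R and 32 for TLR4-K810R, and stayed within 1.5 times of these under each alternative except the last-exon sum alone in TLR4-K730R, which tested fewer genes and called 26. The 1 call in TLR4-K810R against TLR4-WT mock became 0 with a pseudocount of 0.1, no filter, median-of-ratios scaling, the replicate block, and the first-exon or the last-exon sum alone, and stayed 1 with every row as listed. The cause was not tested. Leaving out 1 library gave 36 to 40 calls with LPS in TLR4-WT, 31 to 36 in TLR4-K730R and 27 to 30 in TLR4-K810R, 0 for both mutants in mock cells and for TLR4-K730R with LPS, 0 to 4 for TLR4-K810R with LPS (4 without TLR4-WT LPS replicate 3), and 0 for the response of TLR4-K730R and 0 to 1 for that of TLR4-K810R (1 without TLR4-WT LPS replicate 1). Replicate numbers did not pair the libraries: of 45 pairs of the same number in different groups, 0 had a correlation of deviations over 0.1 (median -0.022). Of 90 pairs of different number, 8 had one over 0.1, the highest at 0.269. With the replicate block, 41, 38 and 31 list genes were called with LPS. Median-of-ratios scaling turned 1012 higher and 2316 lower calls over all genes into 1493 and 1380 in TLR4-WT, 905 and 2568 into 1483 and 1310 in TLR4-K730R, and 881 and 1916 into 1194 and 1135 in TLR4-K810R. No LPS difference of the 10 members changed sign under the alternatives in any genotype, though the last-exon sum alone gave values for 8 of them, without Acsl1 and Pnpla7. The depth is unknown, so values near 0 FPKM have no floor.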
